A study of Mus musculus with 16 samples.

Results

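The regions described here were called as hypersensitive to DNase I in the livers of CAST mice of both sexes and in neither sex of B6. They were selected on the deposited peak lists themselves: peaks of the 4 lists that overlapped by at least 1 bp on the 19 autosomes were joined, and a region was kept when it held a peak of the male and of the female CAST list and no peak of either B6 list. Of 50655 autosomal regions, 1834 met this rule and are called CAST-only regions below, which is 3.62% of all regions. Regions that met the mirror rule, in both B6 lists and neither CAST list, numbered 1671, or 3.30% of all regions, and are called B6-only regions. Regions with a peak in all 4 lists numbered 17999. Presence in the lists chose these classes, so peak counts, scores and fold enrichments of the members are given as descriptions.

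DNase-seq was carried out on purified liver nuclei of mice of the strains C57BL/6J, called B6 here, and CAST/EiJ, called CAST, of both sexes and aged 8 weeks, without any treatment, after digestion with 32 units of DNase I. B6 is the laboratory strain behind the mouse reference genome, and CAST descends from wild-caught mice of a different subspecies. Each sex and strain had 4 libraries, which the authors pooled before calling peaks, so each group is 1 list and no spread between animals could be computed. The libraries were made from whole-liver nuclei, in which hepatocytes are mixed with other liver cells, and a smaller share of a cell type cannot be told apart from less open chromatin in each cell.

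A DNase hypersensitive site is a stretch where nucleosomes are displaced and the enzyme can cut, as happens at promoters, enhancers and insulators bound by transcription factors. Sequence variants between strains can make or break a factor's binding site and so open or close such a stretch on 1 genetic background, and neighbouring sites that switch together can accompany a gene that is expressed in 1 strain. In liver, open regions are typically bound by factors of the C/EBP, HNF4A, HNF1, HNF6, FOXA and STAT5 families, which drive genes of bile acid, lipid, steroid and drug metabolism.

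The depth of the lists was unequal and bears on every count. The deposited fold enrichment and p-value of a peak together give the pileup of reads at its summit and the local background expected there. These were recovered for CAST-only regions in the CAST lists and for B6-only regions in the B6 lists. The background value that the most of these regions shared in a list is taken as its genome-wide one. It was 14.3 reads in the male CAST list and 7.94 reads in the female CAST list, compared with 15.4 in male B6 and 13.9 in female B6. A CAST-only region therefore had to be called in the shallowest list, whereas a B6-only region had to be called in a pair of deeper ones. The counts of the 2 classes are not a measure of which strain gained more open regions, and the part of depth in them was not tested.

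The rule also left out 10 regions by limits meant to remove likely copies of mitochondrial sequence, 4 for a fold enrichment above 7 with a −log10 p above 1000 in both CAST lists and 7 for a width of at least 2000 bp, with 1 region meeting both limits. All 4 regions left out for score matched the mitochondrial genome of the reference over most or all of their length, and so did 2 of the 7 wide regions, with 93.3% to 99.9% identity over the 5 matching regions. The strongest of them, near Eea1 (chr10:95540160-95540526), had a fold enrichment of 35.9 in male and 35.3 in female CAST. Outside the gene lists further below, a region called near a gene has its nearest start there, at whatever distance. Of the members kept, 6 also matched the mitochondrial genome, with 79.0% to 99.7% identity, and 0 of the 1671 B6-only regions did. These 6 included the 2 highest-scoring members, at chr12:98299664-98300003 (fold enrichment 29.2 in male and 28.6 in female CAST) and chr6:79767948-79768347 (31.8 and 28.2). Both stood just inside the score limit, because their −log10 p in the female list was 581 and 536. The nearest region outside the limit, near Ccnh (chr13:85266200-85267122), had a fold enrichment of 19.1 and 18.3 and a −log10 p of 2488 and 1195. The widest member was 1925 bp, next to Vmn2r112, and the narrowest region left out for width was 2015 bp, in Myo3a. The values most touched by the mitochondrial matches are also given without them.

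Sequences of 201 bases centred on the summit in the male CAST list are shown for 6 members, chosen because they lie in the longest run, at the sulfotransferase genes, or lie beside a gene start and hold a motif string. Those of the run are its 2 highest-ranked members and a lower-ranked one, shown for its STAT5 string. They were read from mm9 and are therefore B6 sequence, the strain in which the region was not called, since the CAST sequence was not used here. Capitals mark every match, on either strand, to the 10 strings of the 9 motifs listed further below. The windows are, in order, chr10:33507440-33507640, chr10:33570618-33570818, chr10:33572623-33572823, chr11:88109034-88109234, chr10:5815438-5815638 and chr9:78191767-78191967, all on the plus strand.
Gm4794 upstream region: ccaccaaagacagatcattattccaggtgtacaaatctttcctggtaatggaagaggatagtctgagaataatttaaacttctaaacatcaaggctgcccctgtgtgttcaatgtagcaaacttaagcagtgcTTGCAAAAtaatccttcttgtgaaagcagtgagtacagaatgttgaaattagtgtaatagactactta
Sult3a1 upstream region 1: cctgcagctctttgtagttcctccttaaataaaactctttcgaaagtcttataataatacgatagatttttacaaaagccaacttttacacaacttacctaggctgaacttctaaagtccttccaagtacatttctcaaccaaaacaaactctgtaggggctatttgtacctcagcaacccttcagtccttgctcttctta
Sult3a1 upstream region 2: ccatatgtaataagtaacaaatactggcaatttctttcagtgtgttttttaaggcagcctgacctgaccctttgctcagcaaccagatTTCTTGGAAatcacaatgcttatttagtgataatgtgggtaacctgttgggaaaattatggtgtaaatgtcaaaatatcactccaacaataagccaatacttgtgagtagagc
1700106J16Rik region: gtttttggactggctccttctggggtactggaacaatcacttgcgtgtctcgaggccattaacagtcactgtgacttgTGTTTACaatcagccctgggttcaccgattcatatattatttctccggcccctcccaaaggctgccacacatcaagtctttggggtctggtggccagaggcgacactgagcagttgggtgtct
Gm221 intronic region: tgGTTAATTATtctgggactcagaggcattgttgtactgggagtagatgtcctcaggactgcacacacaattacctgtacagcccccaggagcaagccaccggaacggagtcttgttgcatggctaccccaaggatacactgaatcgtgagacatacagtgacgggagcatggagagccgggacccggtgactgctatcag
Gsta2 intronic region: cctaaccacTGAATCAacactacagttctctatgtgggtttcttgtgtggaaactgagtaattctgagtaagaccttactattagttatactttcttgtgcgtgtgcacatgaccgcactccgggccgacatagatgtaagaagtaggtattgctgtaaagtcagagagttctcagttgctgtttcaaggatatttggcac
The Gm4794 window holds a C/EBP string, the second Sult3a1 window a STAT5 string close to the summit, the 1700106J16Rik window a FOXA string, the Gm221 window an HNF1 string and the Gsta2 window an AP-1 string, whereas the first Sult3a1 window holds none of them. The 3 windows of the sulfotransferase run are poor in G and C, at 36.8%, 37.3% and 36.8%, compared with a median of 46.3% over all CAST-only windows.

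CAST-only regions ranked by −log10 q, the peak caller's score for a peak after correction for multiple tests, at a median percentile of 45.2 among the peaks of the male CAST list and of 24.6 among those of the female list, and B6-only regions at 40.1 and 22.5 in the B6 lists. The median fold enrichment of the summit of CAST-only regions over its background was 3.51 in the male list (range 1.53 to 31.8) and 3.21 in the female list (1.56 to 28.6), and the highest values without the mitochondrial matches were 16.8 and 15.1. The median −log10 q was 16.3 in males and 6.13 in females. Regions found in all 4 lists were higher, with a median fold enrichment in CAST of 5.80 in males and 4.66 in females. Members near Parp14 and Ptafr were among the weakest, with a −log10 q of 1.38 in the female list. Over every peak of the CAST lists the median fold enrichment was 3.74 in male and 4.06 in female CAST. Ranked within their own lists, 300 members (16.4%) stood in the upper 50% of both CAST lists, 80 (4.36%) in the upper 25% and 17 (0.927%) in the upper 10%, or 296, 76 and 14 without the mitochondrial matches. The corresponding B6-only regions in the B6 lists numbered 218 (13.05%), 37 (2.21%) and 3 (0.180%). The local background was more than 2 times the genome-wide one in both CAST lists at 99 members (5.40%), and in both B6 lists at 28 B6-only regions (1.68%).

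Among the 10 members that ranked highest in both CAST lists, 3 matched the mitochondrial genome, those already named on chromosomes 12 and 6 and a region on chromosome 18 near Bambi (chr18:3638867-3639142). The other 7 did not. The highest of these lay in an intron of Dgkg, a diacylglycerol kinase (chr16:22598694-22599335), with a fold enrichment of 16.8 in male and 15.1 in female CAST. The next, 5404 bp upstream of Gm4794 (chr10:33507325-33507871), had a lower fold enrichment, 6.94 and 5.84, on a local background of 77.5 and 46.9 reads. Its −log10 q of 256 and 113 thus came from many reads over a background well above the genome-wide one. Regions beside 1700106J16Rik (chr11:88108722-88109530, 13.9 and 11.1) and near Kif16b, a kinesin gene (chr2:142380456-142381097, 14.8 and 11.2), were high in both sexes. So were regions in an intron of Gm221 (chr10:5815100-5815817, 13.6 and 9.25) and in an intron of Dedd2, a death effector domain gene (chr7:25990746-25991683, 9.63 and 8.78). The nearest B6 peak was 902 bp away for the Gm4794 region and 1791 bp away for the Dedd2 region, and between 55356 and 134032 bp away for the Dgkg, 1700106J16Rik, Kif16b and Gm221 regions.

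**Figure D1:**
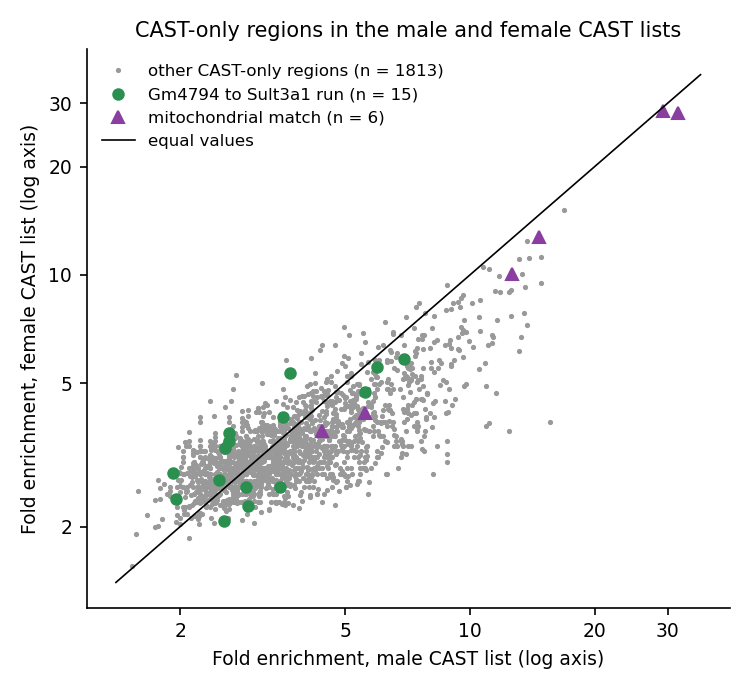
Fold enrichment of each CAST-only region in the male CAST list (horizontal, log axis) and in the female CAST list (vertical, log axis), with 15 regions of the Gm4794 to Sult3a1 run in green and 6 regions that match the mitochondrial genome as purple triangles. The middle 50% of the values lie between 2.78 and 4.77 in males and between 2.796 and 3.84 in females, and the 2 highest points are mitochondrial matches.

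Male and female CAST livers gave similar values at most members. The ratio of male to female fold enrichment had a median of 1.09 over the 1834 regions, and 1564 of them (85.3%) differed by no more than 1.5 times between the sexes. The female value was the higher in 671 regions (36.6%). At regions of all 4 lists the CAST ratio had a median of 1.20 and the female value was higher in 14.4%, and at B6-only regions the B6 ratio had a median of 1.19 with the female value higher in 23.5%. Because a member had to be called in the shallower female list, members weak in females are missing from this comparison, and the male and female lists were 1 measurement each.

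A few members were far apart between the sexes. The male value exceeded the female value by more than 1.5 times in 243 members (13.2%) and by more than 2 times in 40 (2.18%), whereas the female value exceeded the male value by more than 1.5 times in 27 (1.47%) and by more than 2 times in 0. The longer tail on the male side was not particular to the members. The male to female ratio had a 95th percentile of 1.81 in members and of 1.66 in CAST at regions of all 4 lists. At B6-only regions it was 1.82 in B6. The 5th percentiles were 0.737, 0.888 and 0.839 in the same order. The widest gap was 188544 bp from 9430076G02Rik (chr18:54392820-54393405), with a fold enrichment of 15.6 in males and 3.91 in females. It was followed by an intron of Rims1, a synaptic scaffold gene (chr1:22640674-22641439), with 12.4 and 3.69. The next 3 regions had their nearest starts at Luzp2, Vmn1r1 and Dsg4, 626340, 55800 and 3152 bp away, the last coding for a desmoglein of hair follicles. They had values of 8.81, 8.13 and 10.95 in males and of 3.02, 2.80 and 3.803 in females. In the opposite direction, an intronic region of Utp20 whose nearest start is Arl1 (chr10:88228176-88228670) had 2.73 in males and 5.26 in females, and a region near Tcfap2c (chr2:172528719-172529519) had 2.36 and 4.47. Regions near Pik3cb, Ifltd1 and B4galt5 had male values of 2.23, 2.69 and 2.23 and female values of 4.03, 4.83 and 3.91. These are single values from pooled libraries, chosen as the extremes, and carry no error.

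Part of the CAST-only regions stood in runs. Of the 1834 members, 510 (27.8%, 95% Wilson interval 25.8% to 29.9%) lay within 50 kb of another member, compared with 385 of 1671 B6-only regions (23.04%, 21.1% to 25.1%). There were 54 runs of at least 3 CAST-only regions with 216 members (11.8%), and 27 runs of at least 3 B6-only regions with 87 (5.21%). There were 9 CAST-only runs of at least 5 regions and 1 such B6-only run, at Ank3. These shares are descriptions, since neighbouring regions are not independent of each other.

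The longest run held 15 members over 141460 bp at the sulfotransferase gene Sult3a1 and the genes Gm4794 and Gm10327 (chr10:33451988-33593447). Sulfotransferases add sulfate to steroids, bile acids and drugs, and Gm4794 is grouped with them here, under the name Sult3a2 in the study. The span held 29 regions in all, 28 with a CAST peak and 5 with a B6 peak, and only 1 was in all 4 lists. That shared region (chr10:33536614-33537263) had a fold enrichment of 5.70 in male and 6.28 in female CAST and of 3.42 in male and 2.92 in female B6. A region in the body of Sult3a1 (chr10:33585641-33586343) had 5.51 in males and 6.56 in females of CAST, 2.08 in B6 females and no peak in B6 males.

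Within the run the strong members formed groups upstream of the outer genes. Upstream of Gm4794, which is read on the minus strand, the region shown in the sequences above (6.94 in male and 5.84 in female CAST) lay beside a weaker neighbour at chr10:33505923-33506886 (2.57 and 3.31). Upstream of Sult3a1, 3 regions lay 16194, 12758 and 10602 bp from its start, with fold enrichments of 5.59, 5.97 and 3.69 in males and of 4.74, 5.55 and 5.34 in females. The other members of the run had values between 1.92 and 3.54 in males and between 2.07 and 4.03 in females. The female value was higher in 8 of the 15. The local background in the run reached 79.3 reads in male and 47.6 in female CAST, several times the genome-wide background, and its part in the scores was not tested.

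**Figure D2:**
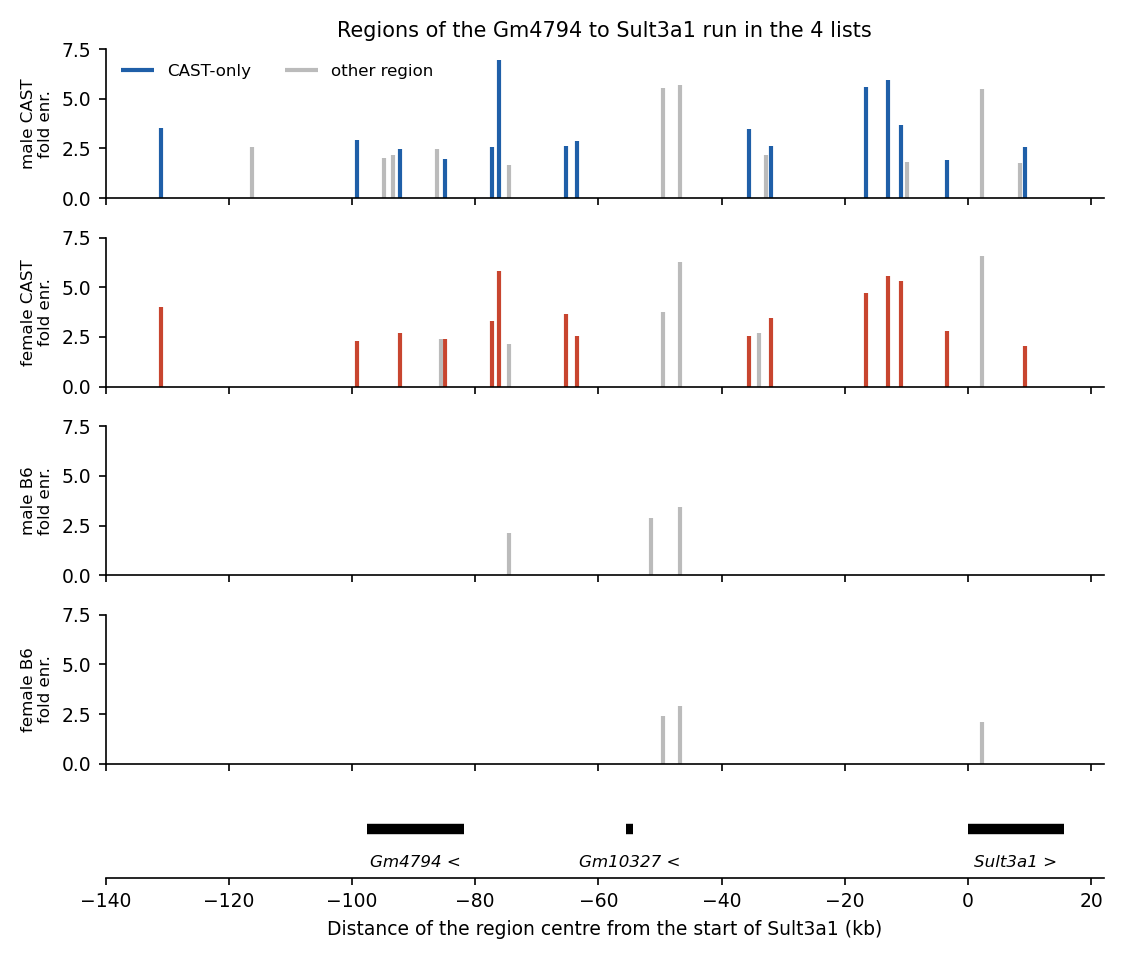
Fold enrichment (vertical) of the 29 regions of the Gm4794 to Sult3a1 run in each of the 4 lists against the distance of the region centre from the start of Sult3a1 (kb), with CAST-only regions in blue or red, other regions in grey and genes as black bars whose arrowheads give the direction of transcription. The CAST lists have peaks across the whole span, with the highest at 6.94 upstream of Gm4794 in males and at 6.56 in the body of Sult3a1 in females, and the B6 lists have low peaks at 5 positions.

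A 6-region run at Clvs2 (chr10:33248073-33291368) and a 4-region run nearest the same gene (chr10:33353272-33388014) lay on the same stretch of chromosome 10, and together with the Gm4794 to Sult3a1 run they made 25 of the 75 regions between positions 33000001 and 34000000 (33.3%) CAST-only. The next longest runs stood at other kinds of loci. A run of 11 lay among 10 immunoglobulin heavy-chain genes annotated on chromosome 12, Ighv11-2, Ighv14-3 and Ighv9-2 among them (chr12:115178047-115369344). None of its 19 regions had a B6 peak, and its strongest member reached 10.96 in male and 4.92 in female CAST. A run of 8 covered Cfhr2, a complement factor H-related gene (chr1:141882062-141963220), where fold enrichments were between 2.199 and 3.53 in males and between 2.62 and 3.48 in females. Runs of 7 lay near 9130204L05Rik on chromosome 3 and at the vomeronasal receptor gene Vmn2r112 on chromosome 17, and neither span had a B6 peak. Runs of 5 lay at Gm1153 and in Irf2, an interferon regulatory factor gene, both on chromosome 8, and at A530053G22Rik on chromosome 6. The Irf2 span was the only 1 of the 8 longest apart from Gm4794 to Sult3a1 to hold regions of all 4 lists, 3 of 13.

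In the 8 longest runs the median width was between 605 bp in Irf2, where 0 regions were wider than 1000 bp, and 1406 bp at Gm1153, compared with 583.5 bp over all members. Members in runs of at least 3 had a median width of 636 bp, and 36 of 216 (16.7%) were wider than 1000 bp, compared with 85 of 1324 members that stood alone (6.42%). In B6-only regions the corresponding shares were 8.05% in runs and 5.83% alone. Of the 9 longest CAST-only runs, 5 had no B6 peak in their span, and of all 54 runs of at least 3 members, 26 (48.1%) had none, compared with 16 of 27 B6-only runs (59.3%) that had no CAST peak. Left-out wide regions lay inside 2 of these runs, at Cfhr2 (2636 bp) and among the immunoglobulin genes (2079 bp).

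**Figure D3:**
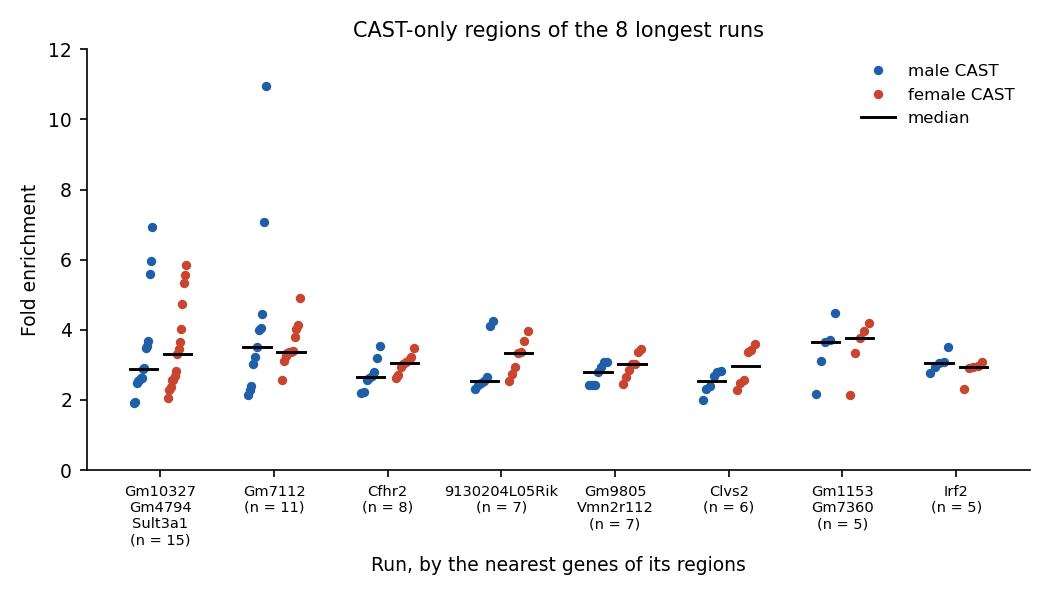
Fold enrichment (vertical) of every CAST-only region of the 8 longest runs, in order of their number of regions, in the male (blue) and female (red) CAST lists, with medians as black bars. Apart from the Gm4794 to Sult3a1 run, the immunoglobulin run labelled Gm7112 is the only 1 with values above 5, and medians lie between 2.54 and 3.76.

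CAST-only regions lay farther from gene starts than the other classes. Of the 1834 members, 1587 (86.5%, 95% Wilson interval 84.9% to 88.0%) were promoter-distal, more than 2.5 kb from every annotated start, compared with 1344 of 1671 B6-only regions (80.4%, 78.5% to 82.3%), and the odds ratio of 1.56 was past the test's threshold (Fisher's exact test, two-sided, p = 1.21e-06). Against regions of all 4 lists, of which 45.6% were promoter-distal, the odds ratio was 7.67 (Fisher's exact test, p = 2.41e-269). The shares were also compared at equal rank: in each of 5 equal bands of rank in the male list the CAST-only share was above the B6-only share, from 84.1% against 75.7% in the lowest to 91.0% against 89.2% in the highest, and the pooled odds ratio within these strata was 1.499 (Mantel-Haenszel chi-square test, p = 1.28e-05). Among the 458 CAST-only and 334 B6-only regions with a −log10 q of at least 10 in both own lists, the odds ratio was 1.47 (Fisher's exact test, p = 0.0963). In regions of all 4 lists the share fell over the 5 bands of rank, from 65.8% in the lowest to 39.8% in the highest. The odds ratio of 7.67 was not computed at equal rank. The tests count regions of pooled lists, not animals, and treat neighbouring regions as independent.

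At the summit, 866 members (47.2%) were intronic, 849 (46.3%) intergenic, 44 (2.40%) in coding exons and 75 (4.09%) in other exons. The median distance to the nearest start was 17350 bp for CAST-only, 15234 bp for B6-only and 984 bp for regions of all 4 lists. Only 58 members covered an annotated start, compared with 133 B6-only regions. B6 peaks were often not far away: the median distance from a member to the nearest B6 peak was 10371 bp, 168 members (9.16%) had a B6 peak within 1000 bp, and 404 (22.03%) had none within 50 kb. From a B6-only region to the nearest CAST peak the median was 9987 bp, 9.81% had one within 1000 bp and 16.8% had none within 50 kb.

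**Figure D4:**
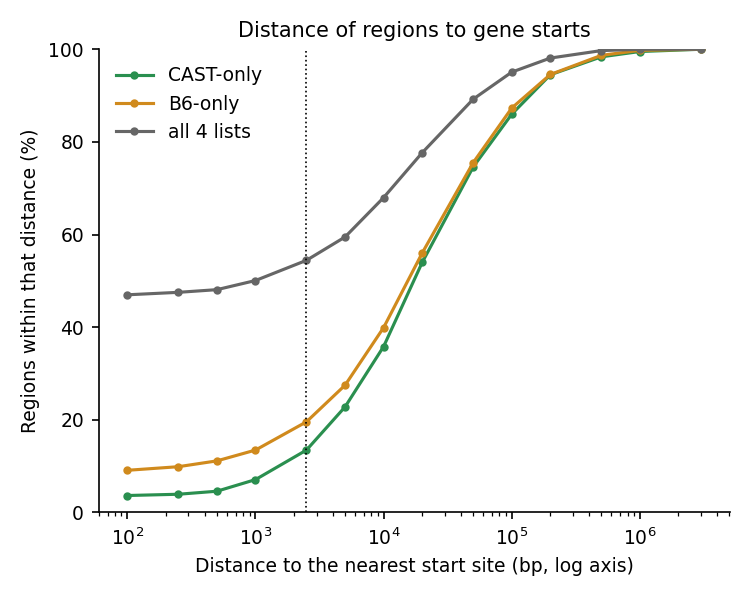
Share of regions (vertical, %) within a given distance of the nearest gene start (horizontal, bp, log axis) for CAST-only regions, B6-only regions and regions of all 4 lists, with the promoter limit of 2.5 kb dotted. At 2.5 kb the CAST-only curve is at 13.5% and the B6-only curve at 19.6%, and both run below the curve of regions in all 4 lists.

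Of the 247 members within 2.5 kb of a start, 225 were near a protein-coding gene. The strongest of these were the regions beside 1700106J16Rik and Gm221 already described. The next lay in a coding exon of Llgl2, a cell polarity gene (chr11:115711752-115712357), with a fold enrichment of 10.7 in male and 10.49 in female CAST, and beside Slc26a9, an anion transporter gene (chr1:133638395-133638964), with 11.8 and 8.98. A region in P2rx7, which codes for an ATP-gated channel (chr5:123098288-123098885), had 9.10 and 8.38. Regions in Pde4d, a cAMP phosphodiesterase gene, and in Prpf8, a core spliceosome gene, had 6.00 and 5.68 in males and 6.31 and 5.74 in females. Members covered the starts of Cmas, which codes for an enzyme of sialic acid activation (chr6:142718308-142719196, 5.16 and 5.34), and of Ces2b, a carboxylesterase gene (chr8:107355069-107355788, 9.63 and 5.90).

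Genes of liver function were read by lists, counting a gene when a member lay within 20 kb of any of its starts. Of 24930 autosomal genes, 1379 had a CAST-only region so near, or 5.53%, and 1352 had a B6-only region, or 5.42%. The counts below are descriptions to be read against those shares, with few genes per list.

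Among enzymes of conjugation, 2 of 17 sulfotransferase genes had members, Gm4794 with 7 and Sult3a1 with 5, and 4 of 23 glutathione S-transferase genes did, compared with 1 and 2 genes of these lists that had a B6-only region. The region of Gsta2, an alpha-class transferase (chr9:78191685-78192493), had the highest fold enrichment of these, at 13.5 in male and 7.83 in female CAST on the genome-wide background. Gstt1 and Gstt3 shared 1 region (chr10:75242257-75242965, 3.69 and 3.87), and Gstt2 had a weaker one. Of 19 UDP-glucuronosyltransferase genes, 4 were counted through 2 regions of the Ugt1a locus, whose genes share their last exons: Ugt1a9 and Ugt1a10 through chr1:89951615-89952189 (5.05 and 2.91) and Ugt1a1 and Ugt1a2 through chr1:90092220-90092685 (3.05 and 3.69). In the same locus Ugt1a5 had a B6-only region, the 1 gene of the list that did. Of 73 cytochrome P450 genes only Cyp17a1, an enzyme of steroid synthesis, had a member (chr19:46736606-46737236, 2.53 and 3.05), a share of 1.37%, compared with 5 genes (6.85%) that had a B6-only region.

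Among transcription factors and nuclear receptors of the hepatocyte, 7 of 37 had a member and 3 had a B6-only region. The strongest lay upstream of Trim24, a coregulator of nuclear receptors (chr6:37802904-37803823), at 7.03 in male and 7.62 in female CAST, and Trim24 also had a B6-only region within 20 kb. An intronic region of Zhx2, a repressor gene (chr15:57541695-57542344), had 4.71 and 3.94, and an intronic region of Rxra, the common partner of many nuclear receptors (chr2:27569615-27570562), had 3.88 and 2.83. Regions near Bcl6, Esr1 and Cebpb were weaker, at 2.74, 2.28 and 1.79 in males and 2.53, 3.24 and 2.56 in females, the last on a raised local background of 63.2 and 25.9 reads.

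Among genes of lipid handling, 7 of 45 had members and 3 had B6-only regions. They included Scarb1, the receptor of high-density lipoprotein, the regulators Srebf1 and Srebf2, Fasn and Acacb of fatty acid synthesis and the fatty acid transporter Cd36. Values at the 7 regions of these genes were low, between 1.89 and 3.76 in males and between 2.43 and 3.32 in females. Of 42 solute carriers, 5 had members and 6 had B6-only regions. The bile acid importer Slc10a1 (chr12:82067008-82067528) had 2.41 and 2.59, and the amino acid carrier Slc38a4 (chr15:96890334-96891042) 4.14 and 4.06. The list also included Slc25a47, a mitochondrial carrier with 2 members and also a B6-only region, and Slc27a5 of bile acid conjugation.

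In the complement and coagulation list 3 of 40 genes had members and 3 had B6-only regions. A region in C8b, which codes for a chain of the membrane attack complex (chr4:104440577-104441240), had 4.34 in male and 3.03 in female CAST, and regions at C8g and Fgb had 2.47 and 2.23 in males. C8g also had a B6-only region within 20 kb. Of 26 genes of MHC class I, 4 had members and 1, H2-Q10, had a B6-only region. The region by Tap2, which codes for a subunit of the peptide transporter (chr17:34355506-34356218), reached 10.9 and 5.70, and 3 others near H2-K1, H2-Q2 and H2-Q4 were between 2.95 and 4.85 in males. Of 21 major urinary protein genes, Mup5 had a member (chr4:61505762-61506351, 4.39 and 2.91) and 0 had a B6-only region. Among 20 genes the study used as examples, which it picked with data of these strains in view and so are no independent list, 3 had members: Sult3a1, Gm4794 and Moxd1, with an intronic region at chr10:23947776-23949028 (4.16 and 2.80).

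Markers of cell types were read in the same way. Of 9 hepatocyte markers, Alb and Fgb had members, and Alb had a B6-only region as well. The member in a coding exon of Alb (chr5:90901069-90901640) had fold enrichments of 1.76 and 2.69 over a local background of 60.2 reads in male and 33.6 in female CAST. Of the 6 endothelial markers, Stab2, a scavenger receptor of sinusoidal endothelium, had a member (chr10:86345281-86345724, 3.60 and 3.16), while 3 endothelial markers, Stab2 among them, had B6-only regions. The lists of 6 Kupffer cell, 5 stellate cell, 4 bile duct and 5 lymphocyte markers had 0 members and 0 B6-only regions each.

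The reference sequence under the summits was compared between the classes in windows of 201 bp, searching both strands for short strings: TTGCNNAA (C/EBP), CAAAGTNCA (HNF4A), GTTAATNAT (HNF1), ATCAATA (HNF6), TGTTTAC (FOXA), TTCNNNGAA (STAT5), TGANTCA (AP-1), CCGGAAGT (ETS) and AGGGGGC or AGATGGC (CTCF). A match in a C/EBP or STAT5 string can overlap other strings, and none of the matches is a measured binding site. The C/EBP string was the most common, in 242 CAST-only windows (13.2%), 12.9% of B6-only windows and 11.7% of the windows of all regions. The HNF4A string was in 2.56% of CAST-only and 2.45% of B6-only windows, compared with 2.76% of all regions. The HNF1 string was in 1.53%, 1.496% and 1.27%, and the HNF6 string in 3.98%, 2.99% and 3.33%, in the same order. The AP-1 string was in 6.43%, 7.12% and 6.12%, the CTCF strings in 7.14%, 7.48% and 8.23%, and the ETS string, which is frequent at promoters, in 0.382%, 0.299% and 1.14%.

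Of the 9 motifs, 1 differed between CAST-only and B6-only regions. The FOXA string was in 82 CAST-only windows (4.47%, 95% Wilson interval 3.62% to 5.52%) and in 124 B6-only windows (7.42%, 6.26% to 8.78%), an odds ratio of 0.58 (Fisher's exact test, two-sided, p adjusted over the 9 motifs by Benjamini-Hochberg = 0.0021). The share of all regions was 4.45%, close to the CAST-only share. With the summit of the female list as centre the odds ratio was 0.75 (Fisher's exact test, adjusted p = 0.269), and with any base allowed at the second position of the string it was 0.89 (p = 0.226, not adjusted). The STAT5 string was in 7.80% of CAST-only and 6.58% of B6-only windows, compared with 7.07% of all regions, and passed only in windows reaching 150 bp to each side, where the shares were 12.2% and 8.74% (odds ratio 1.45, Fisher's exact test, adjusted p = 0.00423). All windows are B6 sequence, so a string that a CAST variant makes or breaks is not seen.

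**Figure D5:**
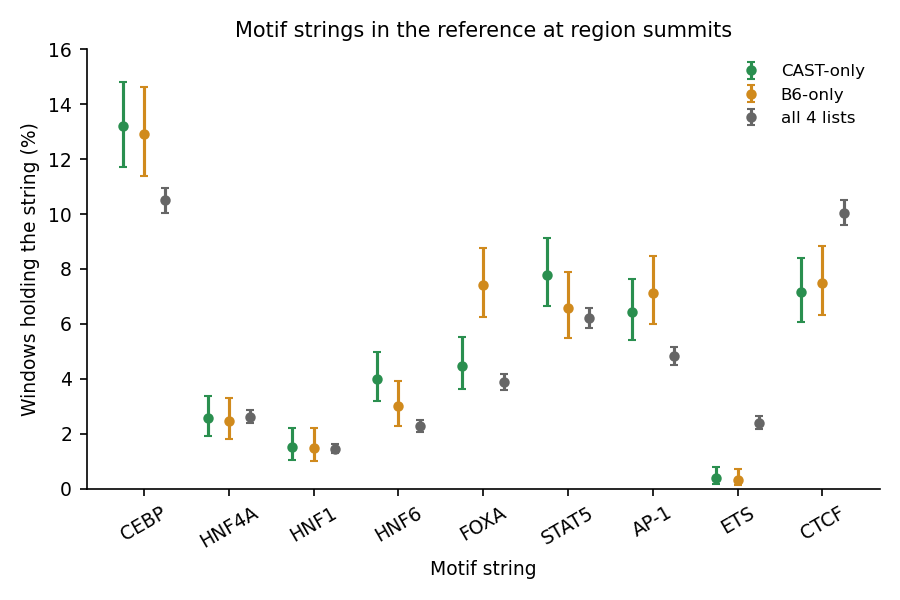
Share of summit windows holding each motif string (vertical, %) in CAST-only regions, B6-only regions and regions of all 4 lists, with Wilson 95% intervals that cover counting error only. The intervals of CAST-only and B6-only regions do not overlap for FOXA, at 4.47% and 7.42%, and overlap for the other 8 motifs.

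Base composition was compared in the same windows. The median GC content of the windows was 46.3% in CAST-only, 48.3% in B6-only and 54.2% in regions of all 4 lists. Among promoter-distal regions the medians were 46.3%, 47.3% and 47.8%. CAST-only windows without any CpG made up 17.4%, compared with 12.99% of B6-only windows and 6.50% of windows of all 4 lists, and among promoter-distal regions 18.7%, 14.1% and 11.96%. Across chromosomes the CAST-only share of regions ran from 2.63% on chromosome 9 to 4.37% on chromosome 3, and every autosome held at least 56 members.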

How the data were processed

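The authors aligned uniquely mapped reads with Bowtie2, B6 reads to mm9 and CAST reads to mm9 carrying known CAST variants, converted CAST coordinates back to mm9, merged the 4 libraries of each group and called peaks with MACS2. The deposited lists give per peak the fold enrichment (a ratio of summit pileup to background), −log10 p and −log10 q against its own list, and a score that restates −log10 q. Lists were joined at 1 bp, on autosomes. The members, gene lists and tests were chosen with earlier results of these data known. Named regions were the 10 highest by the lower rank in the CAST lists, 5 extremes of the sex ratio each way, 10 near coding starts, the 8 longest runs, regions within 20 kb of listed genes, and those beside a limit. Start sites (75543, of 26225 genes) came from GENCODE vM1. The reference (NCBIM37, mm9) held 0 lower-case bases, so the share masked as repeats could not be computed. Mitochondrial matches used blastn 2.17.0 (E at most 1e-05). Local background was recovered for all but 4 members in males and 2 in females. Tests used SciPy 1.17.1 and statsmodels 0.14.6. The joining and classing of regions, the motif test and the recovery of local background were tested on simulated data, and the other steps were not. Intervals cover counting error only. Results for some of the regions selected by these rules are not reported here.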

Additional observations from a re-analysis of the deposited data

Results flagged for a closer look

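The X chromosome was outside the comparisons above. Of its 769 regions, 17 met the CAST-only rule (2.21%), 1 more held peaks of both CAST lists and no B6 list but was left out by the limits on score and width, and 21 held a peak in both B6 lists and in neither CAST list. Each group was a single list.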

How the results depend on the processing

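The count of 1834 CAST-only regions was between 1707 and 1972 under 5 alternatives. It was 585 with only peaks at or above the median −log10 q of all lists (15.7), which also removes B6 peaks, and 458 with CAST peaks at a −log10 q of 10 or more and every B6 peak kept, a limit that touches the shallower female list most (members' median 6.13, compared with 16.3 in males). The promoter-distal odds ratio stayed between 1.36 and 2.04 and past the threshold under 5 alternatives, and was 1.47 (Fisher's exact test, p = 0.0963) at a −log10 q of 10 or more, where fewer regions remain. The median male to female ratio was 1.13 with fold enrichment minus 1 and 1.15 at a −log10 q of 10 or more. The share with a neighbour was 19.8% within 20 kb and 37.9% within 100 kb, compared with 14.96% and 32.4% of B6-only regions. The number of motifs that differed was 0 with female summits, 2 with 150 bp on each side (FOXA and STAT5) and 2 at a −log10 q of 10 or more (FOXA, and HNF1 in 11 of 458 CAST-only and 0 of 334 B6-only windows, which allows up to 0.898%). The FOXA odds ratio was 0.75 with female summits and 0.89 with the relaxed string, the cause of which was not tested, and between 0.41 and 0.62 under 7 others. The alternatives without runs of 3 or more, within GC or rank strata for FOXA, within GC strata for position, at a −log10 q of 10 or more for motifs, and with the relaxed string were chosen after seeing the data. The share of repeat-masked sequence was not run. No paired analysis was possible because each list pools the 4 libraries of its group, so leaving out a replicate was not possible either.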
